A study of Mus musculus with 7 samples.

Results

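The genes described here encode RNA polymerase II, the general transcription factors named TFIIA to TFII-I, the TBP-associated factors (TAFs) and the Mediator complex. They were taken from a table of 37620 mouse genes by symbol: names starting Polr2 or Gtf2, Med followed by digits, and Taf followed by digits, with Taf1a, Taf1b, Taf1c, Taf1d (polymerase I factors) and Taf4b left out. This gave 78 genes, made up of 14 Polr2, 16 Gtf2, 18 Taf and 30 Med genes. Transcripts were measured in 7 mouse MII oocytes, 1 library per cell, where MII is the stage at which an ovulated egg waits in its second meiosis for fertilization. The 4 KO oocytes (KO1 to KO4) were Hira f/f with Zp3-Cre, and the 3 WT oocytes (WT1, WT2 and WT4) were Hira f/f without Cre. All 7 therefore carried floxed Hira alleles, and the WT oocytes were not wild type at that locus. Zp3-Cre expresses the Cre recombinase from a promoter that is active in growing oocytes, so Hira, which encodes a chaperone of the histone variant H3.3, is deleted in the oocyte and not in the rest of the animal. The labels name no animal, strain or age.

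RNA polymerase II makes messenger RNA. At a promoter, TFIID (the TATA-binding protein TBP with its TAFs) marks the start region, TFIIA steadies TFIID on DNA, TFIIB joins it to the polymerase, and TFIIE, TFIIF and TFIIH complete the assembly, with TFIIH opening the DNA and phosphorylating the polymerase tail. Mediator links factors bound at enhancers to this assembly. A fully grown mouse oocyte has largely stopped transcription, so transcripts seen at MII are stored ones, and the embryo draws on stored products when it starts its own transcription. Oocytes and male germ cells also use paralogs of these factors, among them Gtf2a1l (also called ALF), Taf4b and the TBP relative Tbpl2.

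Each library is 1 cell and no animal is named, so each genotype counts as 1 sample, no test of the genotype was made, and every difference describes these 7 libraries. Values are FPKM as deposited (fragments per kilobase of gene, scaled to the reads of the library), with the SD over oocytes. Reads in genes ranged from 15887904 to 25940519 in KO and from 15340782 to 20077129 in WT oocytes. Hira was at 0.0784 ± 0.036 FPKM in KO and 0.317 ± 0.028 FPKM in WT oocytes (SD, n = 4 and 3) without overlap, but the values cover the whole gene. They lie under the filter used below and rest on few reads. These were 12, 15, 5 and 17 in KO1 to KO4, against 42, 55 and 35 in WT1, WT2 and WT4. All 10 oocyte markers checked were above the filter used below, with a summed level of 8520 to 11000 FPKM in KO and 13500 to 14900 FPKM in WT oocytes, while 16 of 20 cumulus and granulosa markers averaged under 1 FPKM in both genotypes and 8 were listed at 0 in every oocyte, Amh, Foxl2 and Lhcgr among them. The other 4 had higher means in KO oocytes. Fshr was at 0, 2.99, 4.34 and 4.51 FPKM in KO1 to KO4 and listed at 0 in every WT oocyte. Nr5a2 (7.25 FPKM in KO and 2.53 FPKM in WT oocytes) and Kitl (4.52 FPKM in KO and 3.11 FPKM in WT oocytes) did not overlap, and Cyp19a1 (24.6 FPKM in KO and 22.0 FPKM in WT oocytes) did. The summed level of those 20 markers was 37.1 to 42.4 FPKM in KO and 26.9 to 29.0 FPKM in WT oocytes, and the part of either marker list in the results below was not tested. The genotype difference given for a gene is its average log2(FPKM + 1) over KO oocytes less that over WT oocytes, taken for the 8033 genes with at least 1 FPKM in at least 3 libraries. The median of all 8033 was 0.18 as deposited, 0.02 after median-ratio scaling and 0.00 after quantile normalization, so a difference near 0 as deposited lies below the typical gene.

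Of the 78 genes, 64 were above the filter, and none of the 64 passed it through oocytes of a single genotype only. Counts past 1.5-fold use the log2(FPKM + 1) scale, while the fold quoted beside a gene's means divides those means. Over 1.5-fold higher in KO oocytes were 12 of the 64 (18.8%), against 22.6% of all genes. Over 1.5-fold lower were 7 (10.9%), against 7.92% of all genes, so neither share was far from its background. The 12 higher genes were Med30, Gtf2a1l, Polr2l, Taf4, Med13, Taf11, Med22, Taf2, Med26, Med17, Med14 and Med25, and the 7 lower genes were Polr2d, Gtf2b, Gtf2a1, Polr2g, Gtf2h3, Med1 and Med29. Past 2-fold there were 2 lower genes, Gtf2a1 and Med29 (2.34% of all genes), and no higher gene (7.95% of all genes). In 13 of the 64 (20.3%, against 8.94% of all genes) every KO oocyte was below every WT oocyte, and in 6 (9.38%, against 18.9%) every KO oocyte was above. More than 20% of the 50-base words of 9 members (Med10, Med20, Med31, Polr2c, Polr2k, Polr2l, Taf6, Taf9 and Taf10) occur in transcripts of other genes, on either strand, so their reads may be split or lost. The median over the 64 was -0.00, against 0.18 for all genes. The count of 12 rested in part on WT2, without which it was 5 of 64, while 19.7% of all genes were higher in that setting. It was also 5 with median-ratio scaling, with 12 lower (15.6% and 13.0% of all genes), and 6 with quantile normalization, with 7 lower (14.4% and 12.7%). Past 1.5-fold under all 3 scalings were 4 of the 64 on the higher side (Med13, Taf4, Polr2l and Med26), against 1072 of all 8033 genes. On the lower side were 5 of the 64 (Gtf2a1, Gtf2h3, Polr2g, Med1 and Med29), against 607 of all 8033 genes. Of the 8 other higher genes, 7 were under 1.5-fold with median-ratio scaling, from 0.39 (Med30) to 0.56 (Gtf2a1l), and Med25 was at 0.48 with quantile normalization.

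**Figure D1:**
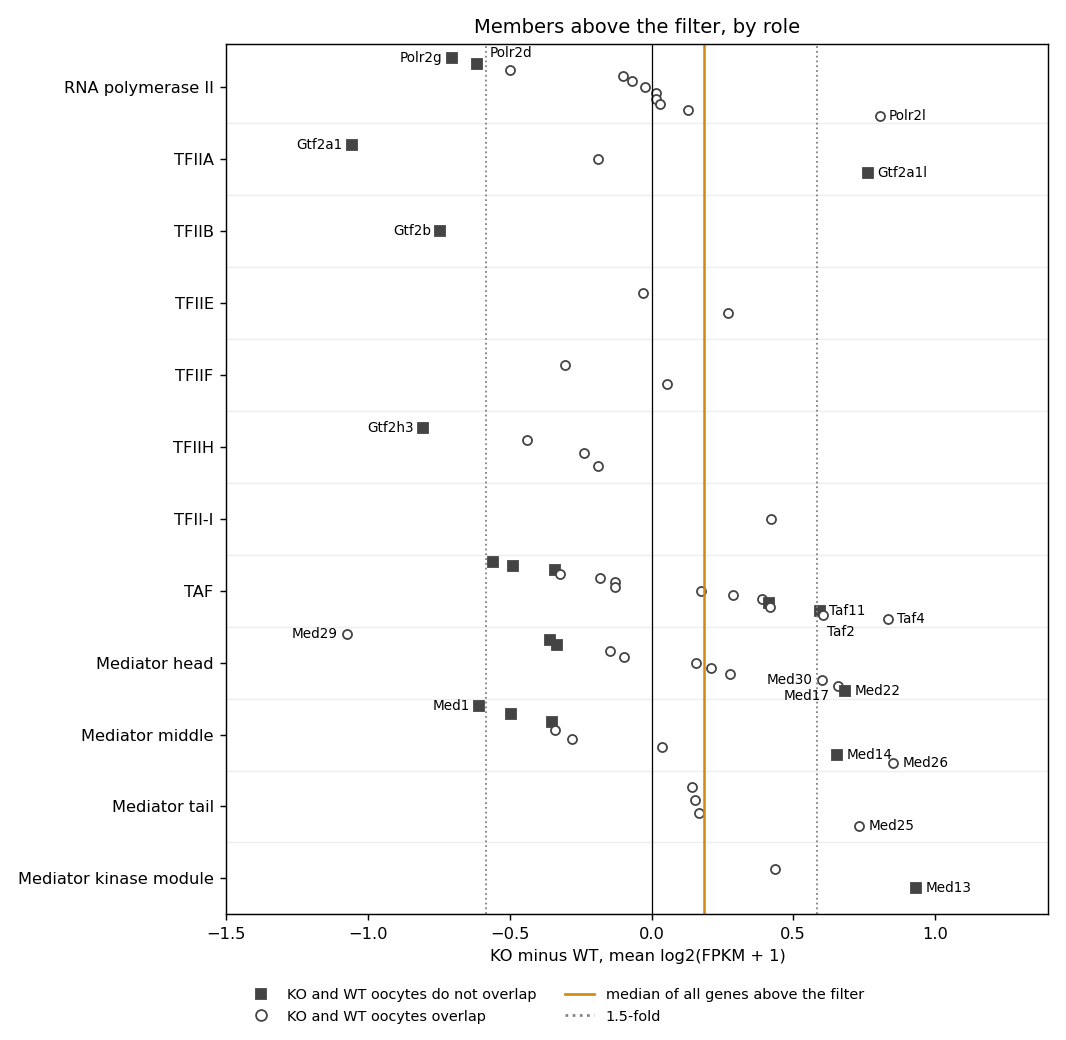
Difference between 4 KO and 3 WT oocytes in mean log2(FPKM + 1) for the 64 genes above the filter, with 1 row per role. Filled squares are genes whose KO and WT oocytes do not overlap, the solid vertical line off 0 is the median of all genes (0.18), and dotted lines mark 1.5-fold. Gtf2a1 (-1.06) and Gtf2a1l (0.77), both of TFIIA, lie far apart, and the TFIIH genes all lie left of 0.

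TFIIA had genes past 1.5-fold on both sides, with the paralogs of its large subunit lying opposite each other. Gtf2a1 encodes the precursor of its alpha and beta subunits, Gtf2a1l encodes a germ cell paralog of that precursor, and Gtf2a2 encodes the gamma subunit. Gtf2a1 was at 90.8, 89.5, 114 and 131 FPKM in KO1 to KO4, against 159, 250 and 267 FPKM in WT1, WT2 and WT4. All KO oocytes were below all WT oocytes, and the mean was 106 ± 19.9 in KO and 225 ± 58.0 in WT oocytes (2.12-fold lower, difference -1.06). Gtf2a1l was at 37.9, 45.1, 69.3 and 52.9 FPKM in KO1 to KO4, against 26.6, 26.7 and 34.5 FPKM in the WT oocytes. Here all KO oocytes were above all WT oocytes, with a mean of 51.3 ± 13.5 in KO and 29.3 ± 4.56 in WT oocytes (1.75-fold higher, difference 0.77, and 0.56 with median-ratio scaling). Gtf2a2 was at 39.5 ± 2.51 FPKM in KO and 45.4 ± 5.54 FPKM in WT oocytes, which overlapped.

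The ratio of the paralogs within an oocyte is free of library scaling. Gtf2a1l over Gtf2a1 was 0.417, 0.504, 0.609 and 0.404 in KO1 to KO4, against 0.167, 0.107 and 0.129 in WT1, WT2 and WT4. The mean ratio was 0.483 ± 0.0946 in KO and 0.135 ± 0.0305 in WT oocytes, 3.60-fold higher in KO without overlap. Gtf2a1 was the more abundant transcript per length in every oocyte. The sum of both was 158 ± 30.1 FPKM in KO and 254 ± 61.0 FPKM in WT oocytes, and the highest KO oocyte (184) was just under the lowest WT oocyte (185.5). Gtf2a1l was also higher relative to Gtf2a2, at a ratio of 1.30 ± 0.341 in KO and 0.660 ± 0.194 in WT oocytes, and the lowest KO oocyte (0.893) was just over the highest WT oocyte (0.883).

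**Figure D2:**
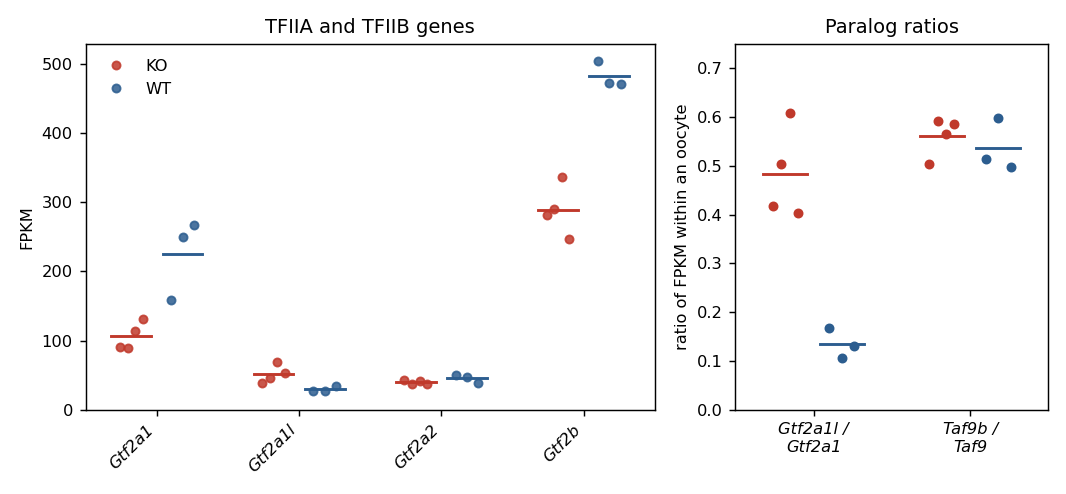
Left, FPKM of the TFIIA genes and of Gtf2b in each oocyte (points) with the group mean (bar), KO left of WT for each gene. Right, the ratio of FPKM within each oocyte for 2 paralog pairs, where Gtf2a1l over Gtf2a1 is 0.404 to 0.609 in KO and 0.107 to 0.167 in WT oocytes and Taf9b over Taf9 overlaps.

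The paralogs share most of their aligned coding bases, but only in short identical runs. Over the 999 aligned coding bases of Gtf2a1 and Gtf2a1l, 61.4% were identical, and the longest identical run was 14 bases. Gtf2a1l shared none of its transcript 50-base words with another gene, and Gtf2a1 shared 2.28% of its own, with pseudogenes. The last 120 coding bases before the stop codon, which encode the conserved end of the beta subunit, are shown for both to let the paralogs be compared base by base, from GENCODE M21 transcripts on GRCm38. Gtf2a1 lies on the minus strand at chr12:91559747-91562923 and Gtf2a1l on the plus strand at chr17:88712431-88714986, each in 2 exon pieces. Capitals mark the 32 bases that differ:
Gtf2a1: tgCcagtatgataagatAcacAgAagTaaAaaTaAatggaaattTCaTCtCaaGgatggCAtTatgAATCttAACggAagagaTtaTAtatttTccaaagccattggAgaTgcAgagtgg
Gtf2a1l: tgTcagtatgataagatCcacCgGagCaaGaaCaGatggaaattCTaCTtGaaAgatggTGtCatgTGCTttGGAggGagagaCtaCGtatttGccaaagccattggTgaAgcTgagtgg

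The starts of both genes were also compared, because their transcripts differed in opposite directions between the genotypes. The windows are the 250 bases before the RefSeq start (GRCm38.p6), which is also the start of a GENCODE transcript of each gene, at chr12:91590488-91590737 on the minus strand for Gtf2a1 and chr17:88668410-88668659 on the plus strand for Gtf2a1l. Capitals mark matches to any of 5 promoter motifs searched on both strands, namely the TATA box (letters TATAAA), the CCAAT box, the GC box (letters GGGCGG), the core bound by ETS factors (letters CCGGAAG) and the cAMP response element (letters TGACGTCA):
Gtf2a1: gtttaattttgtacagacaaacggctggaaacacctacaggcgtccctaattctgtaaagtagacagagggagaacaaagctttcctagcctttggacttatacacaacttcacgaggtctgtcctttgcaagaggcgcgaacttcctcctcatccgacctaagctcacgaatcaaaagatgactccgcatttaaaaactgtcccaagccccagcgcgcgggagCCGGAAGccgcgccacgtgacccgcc
Gtf2a1l: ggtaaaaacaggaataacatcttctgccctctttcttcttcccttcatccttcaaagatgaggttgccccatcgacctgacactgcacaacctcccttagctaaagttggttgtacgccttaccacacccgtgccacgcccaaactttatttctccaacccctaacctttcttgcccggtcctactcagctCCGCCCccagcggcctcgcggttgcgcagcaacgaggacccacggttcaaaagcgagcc
The Gtf2a1 window held a single match, CCGGAAG at 26 bases before the start, and 16 CpG sites. The Gtf2a1l window held a single match, a GC box on the minus strand whose first base is 59 before the start, and 13 CpG sites. CCGGAAG was in 6.91% and the GC box in 32.7% of all 32851 windows of that length. Over the 80 windows of the 67 member genes in the RefSeq table, the GC box was in 61.3%, CCGGAAG in 21.2%, CCAAT in 31.2% (33.8% of all windows), TATAAA in 15% (12.4%) and TGACGTCA in 3.75% (1.55%). Member windows held a median of 18.5 CpG sites, against 6 over all windows, and a motif rich in C and G is met more often in such sequence.

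TFIIB, a single protein encoded by Gtf2b, was the most abundant of the general factors. Gtf2b was at 282, 291, 336 and 248 FPKM in KO1 to KO4, against 506, 474 and 471 FPKM in the WT oocytes. The groups did not overlap, with a mean of 289 ± 36.5 in KO and 483 ± 19.2 in WT oocytes (1.67-fold lower). The difference of -0.75 was -0.96 with median-ratio scaling and -0.49 (short of 1.5-fold) with quantile normalization.

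The 4 TFIIH core genes above the filter had differences from -0.81 to -0.19 as deposited, and all 4 were negative under the other scalings too. Gtf2h3, a core subunit, was at 10.7, 11.9, 8.58 and 7.06 FPKM in KO1 to KO4, against 12.1, 20.9 and 19.9 FPKM in the WT oocytes. It was below WT in every KO oocyte, although KO2 and WT1 were close, and its mean was 9.56 ± 2.16 in KO and 17.6 ± 4.83 in WT oocytes (1.84-fold lower). Gtf2h2, whose protein activates the XPD helicase, was at 8.90 ± 2.43 FPKM in KO and 12.3 ± 2.86 FPKM in WT oocytes, with overlap. Gtf2h1 (-0.24) and Gtf2h5 (-0.19) overlapped as well. The enzyme subunits of TFIIH lie outside the name rule. Ercc3, the XPB translocase, was at 2.98 FPKM in KO and 3.43 FPKM in WT oocytes, and the kinase gene Cdk7 at 11.7 FPKM in KO and 10.8 FPKM in WT oocytes, each with overlap. Mnat1, which assembles the kinase, was at 22.5 FPKM in KO and 17.1 FPKM in WT oocytes without overlap, a difference of 0.38.

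TFIIE and TFIIF genes lay within 1.5-fold, and KO and WT oocytes overlapped for each. Of TFIIE, Gtf2e2 (beta) was at 22.1 ± 4.92 FPKM in KO and 22.7 ± 6.33 FPKM in WT oocytes. Its partner Gtf2e1 (alpha) was at 1.93 ± 0.187 FPKM in KO and 1.43 ± 0.292 FPKM in WT oocytes. Of TFIIF, Gtf2f2 was at 37.7 ± 5.09 FPKM in KO and 36.1 ± 3.47 FPKM in WT oocytes, and Gtf2f1 at 11.6 ± 3.31 and 14.2 ± 1.68 FPKM in KO and WT oocytes. The TFII-I family is named for its founding factor but has mainly regulatory roles. Its member Gtf2ird1 was at 6.03 ± 0.645 FPKM in KO and 4.36 ± 1.54 FPKM in WT oocytes. Gtf2i itself was listed above 0 in KO2 only, at 0.017 FPKM.

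Among the polymerase genes, 2 of 11 above the filter were over 1.5-fold lower (18.2%, against 7.92% of all genes) and 1 was higher (9.09%, against 22.6%). Both lower genes average over 100 FPKM, a level at which 17.4% of all genes were lower. Polr2d, which encodes RPB4, had the highest mean level of the 78 genes, although Gtf2b exceeded it in KO4 and WT2. Polr2d was at 391.8, 382, 373 and 189 FPKM in KO1 to KO4, against 510, 417 and 561 FPKM in the WT oocytes. All KO oocytes were below WT, but KO4 stood far below the other KO oocytes, and the difference of -0.62 was -0.36 without KO4, -0.52 without WT4 and -0.38 with quantile normalization. Polr2g, which encodes RPB7, the partner of RPB4 in the stalk of the enzyme, was at 99.8, 121, 99.7 and 95.6 FPKM in KO1 to KO4, against 163, 157.5 and 189 FPKM in the WT oocytes. Its groups did not overlap, and the mean was 104 ± 11.5 in KO and 170 ± 16.8 in WT oocytes (1.63-fold lower). The difference of -0.70 stayed past 1.5-fold under all 14 alternatives run, from -0.92 to -0.61, although the changes of filter among them cannot alter a single gene's difference. Both stalk genes were thus lower in these KO oocytes, while other abundant subunits overlapped. Polr2c (RPB3) was at 101 ± 5.22 FPKM in KO and 106 ± 7.89 FPKM in WT oocytes, Polr2j (RPB11, which pairs with RPB3) at 139 ± 26.3 and 141 ± 27.4 FPKM in KO and WT oocytes, and Polr2b, the second largest subunit, at 13.5 ± 2.12 and 14.8 ± 4.14 FPKM in KO and WT oocytes. Other genes, an antisense one among them, share 26.1% of the words of Polr2c.

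The subunits that polymerases I, II and III share are Polr2e, Polr2f, Polr2h, Polr2k and Polr2l. Polr2l (RPB10) was at 43.3, 42.9, 31.5 and 22.4 FPKM in KO1 to KO4, against 19.0, 13.6 and 26.2 FPKM in the WT oocytes, and KO4 lay within the WT range. Its difference of 0.81 was 0.58, just short of 1.5-fold, without WT2. Of its 50-base words, 21.1% occur in other genes. Polr2f was at 126.5 ± 10.8 FPKM in KO and 125.9 ± 28.2 FPKM in WT oocytes, and Polr2h and Polr2k differed by 0.02 and 0.01. Polr2a, the catalytic largest subunit that carries the heptad-repeat tail, was low, at 1.82 ± 0.247 FPKM in KO and 1.61 ± 0.592 FPKM in WT oocytes. The transcripts of this 1 enzyme therefore ranged from under 1 FPKM (Polr2e, at 0.712 ± 0.212 in KO and 0.613 ± 0.439 in WT oocytes) to 334 and 496 FPKM (Polr2d, in KO and WT oocytes).

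**Figure D3:**
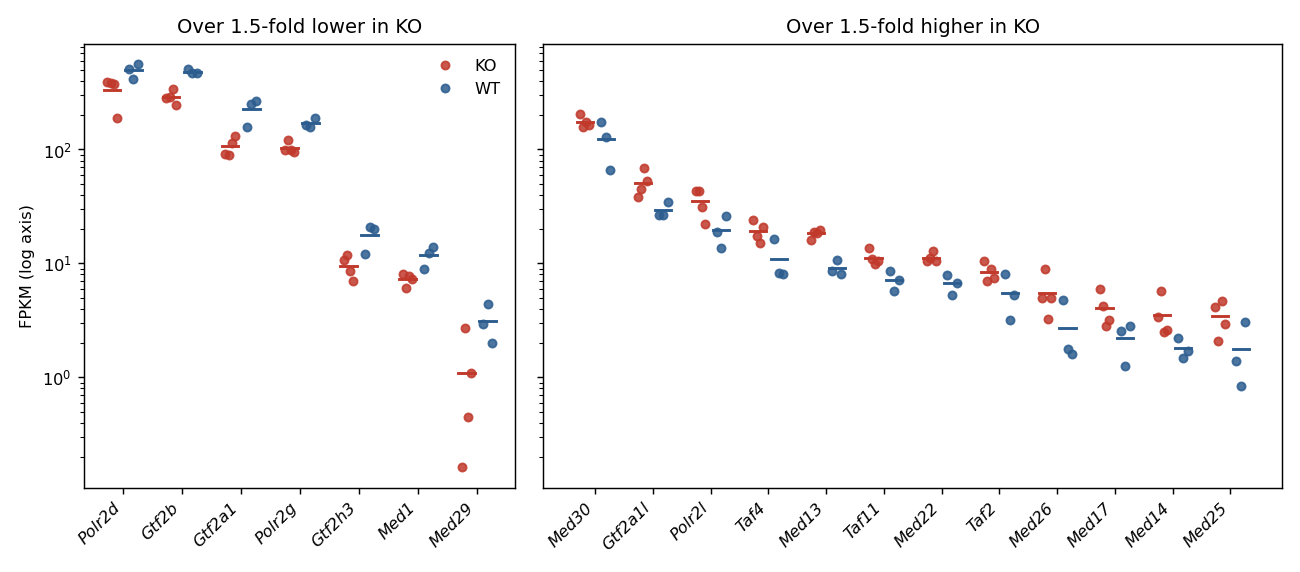
FPKM on a log axis in each KO and WT oocyte (points) for the 7 genes over 1.5-fold lower (left) and the 12 over 1.5-fold higher in KO (right), ordered by level, with the group mean as a bar. The lower genes include 4 above 100 FPKM on average, and 1 of the higher genes, Med30, reaches that level, where 17.4% of all 362 genes are over 1.5-fold lower and 4.7% higher.

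The TAF genes were compared for 15 of 18, of which 3 were over 1.5-fold higher (20%, against 22.6% of all genes) and none lower (7.92% of all genes). With median-ratio scaling 1 was higher and 2 were lower (15.6% and 13.0% of all genes). With quantile normalization 1 was higher and none lower (14.4% and 12.7% of all genes). Taf4, a scaffold of TFIID, was at 24.2, 17.5, 15 and 21.03 FPKM in KO1 to KO4, against 16.3, 8.29 and 8.03 FPKM in the WT oocytes. KO3 lay under WT1, so the groups overlapped, and the difference of 0.83 ranged from 0.64 to 1.14 over the 14 alternatives. Its germ cell paralog Taf4b, outside the name rule, was at 15.03, 15.2, 13.1 and 17.03 FPKM in KO1 to KO4, against 6.85, 3.66 and 5.30 FPKM in the WT oocytes, without overlap. Taf4b over Taf4 within an oocyte averaged 0.792 ± 0.117 in KO and 0.508 ± 0.133 in WT oocytes and overlapped, since KO1 (0.621) was under WT4 (0.661). Taf11, which with Taf13 forms a histone-fold pair, was at 11.2 ± 1.598 FPKM in KO and 7.13 ± 1.42 FPKM in WT oocytes without overlap. Its difference of 0.59 was 0.46 without WT2, 0.51 without KO1 and 0.38 with quantile normalization. Taf2, which contacts the initiator, was at 8.49 ± 1.54 FPKM in KO and 5.48 ± 2.43 FPKM in WT oocytes with overlap. Leaving out WT2 took its difference of 0.61 to 0.32, and leaving out KO1 or KO3 took it to 0.51 or 0.58.

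The most abundant TAF genes, Taf9 and Taf7, lay on different sides, each within 1.5-fold as deposited. Taf9 was at 144, 139, 141 and 110.5 FPKM in KO1 to KO4, against 191, 210.1 and 188 FPKM in the WT oocytes, all KO oocytes being lower. Its transcripts share 68.7% of their 50-base words with other genes, mostly Ak6, which overlaps it, so these reads cannot be assigned to Taf9 alone. The paralog Taf9b, with no shared words, was at 72.8, 82.2, 79.5 and 64.8 FPKM in KO1 to KO4, against 98.3, 126 and 93.5 FPKM in the WT oocytes, also without overlap. Taf9b over Taf9 was 0.562 ± 0.0402 in KO and 0.537 ± 0.0538 in WT oocytes and overlapped between the genotypes. With median-ratio scaling both Taf9 (-0.77) and Taf9b (-0.70) were over 1.5-fold lower, and with quantile normalization neither was (-0.44 and -0.47). Taf7, an intronless gene whose protein binds Taf1, was at 146 ± 14.7 FPKM in KO and 110 ± 10.4 FPKM in WT oocytes, with all KO oocytes higher and a difference of 0.41 (0.20 with median-ratio scaling). Taf12, the histone-fold partner of Taf4, was at 13.5 ± 1.86 FPKM in KO and 17.3 ± 0.837 FPKM in WT oocytes, with all KO oocytes lower, the opposite side to Taf4. Taf1, the largest subunit, and Taf3, a reader of trimethylated H3 lysine 4, overlapped, with differences of 0.29 and 0.17 (-0.03 for Taf3 with median-ratio scaling).

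Mediator genes were compared for 25 of 30, with 7 over 1.5-fold higher (28.0%, against 22.6% of all genes) and 2 lower (8.0%, against 7.92%). With median-ratio scaling 3 were higher and 3 lower (15.6% and 13.0% of all genes). With quantile normalization 3 were higher and 2 lower (14.4% and 12.7% of all genes). The kinase module, which docks on the core complex and holds it from the polymerase, held the gene with the largest positive difference of the 64. Med13, which joins the module to the core, was at 16.1, 19.0, 18.6 and 19.7 FPKM in KO1 to KO4, against 8.63, 10.8 and 8.10 FPKM in the WT oocytes. The groups did not overlap, the mean was 18.3 ± 1.57 in KO and 9.16 ± 1.41 in WT oocytes (2.001-fold higher), and the difference of 0.93 stayed between 0.72 and 1.04 over the 14 alternatives. The paralog Med13l was at 7.04 ± 1.92 FPKM in KO and 4.84 ± 0.445 FPKM in WT oocytes, and KO3 (5.03) lay under WT1 (5.32). Med13l over Med13 was 0.392 ± 0.144 in KO and 0.536 ± 0.0874 in WT oocytes, with overlap. Med12, which activates the kinase, and its paralog Med12l were below the filter, at 0.210 and 0.507 FPKM in KO and 0.129 and 0.676 FPKM in WT oocytes. The kinase partner Ccnc (cyclin C) lay on the other side from Med13, at 0.991, 1.03, 0.221 and 1.15 FPKM in KO1 to KO4, against 3.28, 2.03 and 3.42 FPKM in the WT oocytes, and Cdk8 overlapped (7.75 FPKM in KO and 8.14 FPKM in WT oocytes).

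The Mediator head, which binds the polymerase and its tail, had 11 genes above the filter. Med22 was at 10.6, 11.1, 12.7 and 10.6 FPKM in KO1 to KO4, against 7.99, 5.31 and 6.75 FPKM in the WT oocytes, all KO oocytes being higher, and its difference of 0.68 was 0.55 without WT2. Med30 was at 203, 156, 173 and 166 FPKM in KO1 to KO4, against 174, 130 and 65.7 FPKM in the WT oocytes, and its difference of 0.60 rested on WT4, being 0.21 without it (0.53 without KO1). Med17, a scaffold of the head, was at 4.06 ± 1.43 FPKM in KO and 2.199 ± 0.835 FPKM in WT oocytes with overlap (0.66, but 0.42 without WT2 and 0.49 without KO1). Med29 was lower, at 0.162, 2.69, 0.449 and 1.09 FPKM in KO1 to KO4, against 2.91, 4.42 and 2.02 FPKM in the WT oocytes. It was among the least read of the genes compared, with 4, 82, 18 and 36 reads in KO1 to KO4 and 76, 136 and 47 reads in the WT oocytes, and KO2 lay within the WT range. Its difference of -1.08 was -0.42 with a pseudocount of 5. Med6, a conserved head subunit, was at 50.1 ± 1.43 FPKM in KO and 64.6 ± 3.28 FPKM in WT oocytes, and all KO oocytes were lower although the difference was -0.36. Med8 was likewise lower in all KO oocytes, at -0.33.

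The middle module had 2 genes over 1.5-fold higher and 1 lower among 8 above the filter. Over all genes, 22.6% were higher and 7.92% lower, so neither count was far from its background. Med14, the backbone of the complex, was at 3.41, 5.70, 2.48 and 2.60 FPKM in KO1 to KO4, against 2.23, 1.48 and 1.71 FPKM in the WT oocytes, all KO oocytes being higher. Its difference of 0.65 was 0.45 without KO2 and 0.57 without WT2. Med26, which recruits elongation factors, was at 5.54 ± 2.40 FPKM in KO and 2.71 ± 1.78 FPKM in WT oocytes, and WT1 (4.76) lay within the KO range. Its difference of 0.85 was 0.45 with a pseudocount of 5. Med1, the docking subunit for nuclear receptors, was at 8.03, 6.11, 7.78 and 7.34 FPKM in KO1 to KO4, against 9.003, 12.4 and 13.97 FPKM in the WT oocytes. All KO oocytes were lower (1.61-fold), and the difference of -0.61 came to -0.56, -0.49 and -0.54 when WT2, WT4 and KO2 were left out in turn. Med31 was at 66.6 ± 6.27 FPKM in KO and 94.1 ± 7.08 FPKM in WT oocytes and Med4 at 48.8 ± 8.40 and 62.0 ± 5.77 FPKM in KO and WT oocytes, both without overlap but within 1.5-fold, and 24.2% of Med31 is shared with an antisense gene.

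The tail, where activators bind, held Med27, the most abundant Mediator transcript. Med27 was at 201, 218, 227 and 222 FPKM in KO1 to KO4, against 180.5, 196 and 202 FPKM in the WT oocytes, with KO1 under WT4, and its difference of 0.17 was -0.04 with median-ratio scaling. Med25, a target of several activators, was at 3.46 ± 1.17 FPKM in KO and 1.76 ± 1.15 FPKM in WT oocytes with overlap. Without WT2, its difference of 0.73 was 0.48. Med15 and Med23 overlapped, at 11.0 ± 2.22 and 3.51 ± 0.596 FPKM in KO, against 10.04 ± 2.96 and 3.23 ± 1.66 FPKM in WT oocytes.

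The 14 genes below the filter are no evidence of absence. Med10, Taf7l and the pseudogene Polr2k-ps were listed at 0 in every oocyte. Med10 encodes a subunit used by most cells, and 88.7% of its 50-base words are shared with an antisense gene, so it is reported only as listed at 0. Gtf2i (0.017 FPKM in KO2) and Gtf2ird2 (0.007 FPKM in WT1) were each above 0 in a single oocyte. The 1 read recovered for each is the smallest number that fits, so it is only a lower bound. The others, namely Gtf2h4, Med12, Med12l, Med16, Med24, Polr2e, Polr2m, Taf5l and Taf6l, averaged under 1 FPKM in both genotypes. Taf5l and Taf6l, TAF paralogs of the SAGA coactivator, had 238 and 121 reads in KO (95% Poisson intervals 209 to 270.2 and 100.4 to 145) and 35 and 29 reads in WT oocytes (24.4 to 48.7 and 19.4 to 41.7), intervals that cover counting error only. These reads are pooled over 4 KO and 3 WT oocytes of unequal depth, so the sums cannot be compared directly between genotypes. In FPKM, Taf5l averaged 0.835 in KO and 0.203 in WT oocytes, and Taf6l 0.118 and 0.0431. Single cells carried the Taf6l sums, with 77 of the 121 reads in KO2 and 28 of the 29 in WT1. Single oocytes overlapped for both genes, as KO4 had 0.166 FPKM of Taf5l and WT4 had 0.417.

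Genes of the same pathway outside the name rule held more higher than lower members, as did all genes above the filter. Their lists were also drawn up with earlier results known. Of 77 in the table, 56 were above the filter, 11 of them over 1.5-fold higher (19.6%, against 22.6% of all genes), 1 lower (1.79%, against 7.92%) and 44 within 1.5-fold, with a median of 0.15 (-0.02 with median-ratio scaling). Besides Taf4b and Tbpl1, a TBP-like factor (4.79 ± 1.92 FPKM in KO and 2.28 ± 1.69 FPKM in WT oocytes, with overlap), the list of TBP partners held Drap1 past that size. The oocyte TBP paralog Tbpl2 was at 20.4, 15.6, 16.5 and 23.0 FPKM in KO1 to KO4, against 15.4, 13.5 and 13.1 FPKM in the WT oocytes, all KO oocytes being higher but by 0.39 only. TBP itself was low, at 2.94 FPKM in KO and 3.29 FPKM in WT oocytes. Among 26 pausing and elongation genes, 4 were over 1.5-fold higher (15.4%, against 22.6% of all genes): Nelfcd, of the pausing complex NELF (2.56 FPKM in KO and 0.715 in WT), Aff1, of the super elongation complex (3.04 FPKM in KO and 0.827 in WT), Cdk13, a kinase of the polymerase tail (7.92 FPKM in KO and 3.31 in WT), and the elongation factor Ell2, which overlapped (4.75 FPKM in KO and 2.53 in WT). Of the 10 polymerase I and III subunit genes compared, Polr3e (2.07 FPKM in KO and 0.220 in WT, without overlap) and Polr1c (0.968 FPKM in KO and 0.243 in WT, with overlap) were over 1.5-fold higher (20%, against 22.6% of all genes) and none was lower as deposited. Neither Polr3e nor Polr1c reached 1 FPKM in any WT oocyte (at most 0.255 and 0.387 FPKM). Both passed the filter through KO oocytes only, so both higher calls depend on the filter. Under each of the other scalings 1 of the 10 was higher and 1 lower. The shares of all genes were 15.6% and 13.0% with median-ratio scaling and 14.4% and 12.7% with quantile normalization. The lower gene among the 10 was Polr3k (-0.67 with median-ratio scaling and -0.60 with quantile normalization). The tail phosphatases Ctdsp1 and Ctdsp2 made up the rest of the 11, with differences of 0.82 and 0.64. Like Polr3e and Polr1c, they were under 1 FPKM in every WT oocyte and passed the filter through KO oocytes only. Such genes could hardly be called lower, so the count of 11 depends in part on the filter. The lower gene was Ccnc.

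Abundant genes lay lower in KO oocytes than scarce ones did, among the genes described and over the whole table. Of the 19 with a mean level of 30 FPKM and over, 12 had a negative difference, and all KO oocytes were below WT in 9 and above in 2, against 19.5% below and 13.5% above among the 1233 genes at that level. Of the 45 under 30 FPKM, 20 had a negative difference, and all KO oocytes were below WT in 4 and above in 4, against 7.03% and 19.9% of 6800 genes. The median was -0.19 at 30 FPKM and over (-0.03 for all genes there) and 0.04 under 30 FPKM (0.22 for all genes there). The upper range was not uniform, since the 8 genes from 30 to 100 FPKM had a median of -0.27 (0.02 for all genes there) and the 11 at 100 FPKM and over had -0.07 (-0.14 for all genes there). At 30 FPKM and over stand 29.7% of the 64, against 15.3% of all genes. The FPKM of different genes also depend on the gene lengths the authors used, which are not given in the sources used here.

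The groups kept their order under the library scalings. The medians of the general factors and polymerase genes were negative under all 3, while the Mediator median changed sign under both other scalings and the TAF median under median-ratio scaling. The general factors other than TAFs had a median of -0.19 as deposited, -0.40 with median-ratio scaling and -0.37 with quantile normalization. The polymerase genes had -0.02, -0.23 and -0.15 in the same order, TAF genes 0.17, -0.03 and 0.02, and Mediator genes 0.15, -0.05 and -0.04. Per oocyte, the median of the general factors against the WT mean was -0.25, -0.12, -0.15 and -0.26 in KO1 to KO4, against -0.09, -0.03 and 0.15 in WT1, WT2 and WT4, whereas the polymerase, TAF and Mediator medians overlapped between genotypes. The median of all genes did not overlap either, at 0.13 to 0.28 in KO and -0.07 to 0.08 in WT oocytes, so the whole table separated by genotype as deposited, in the opposite direction.

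**Figure D4:**
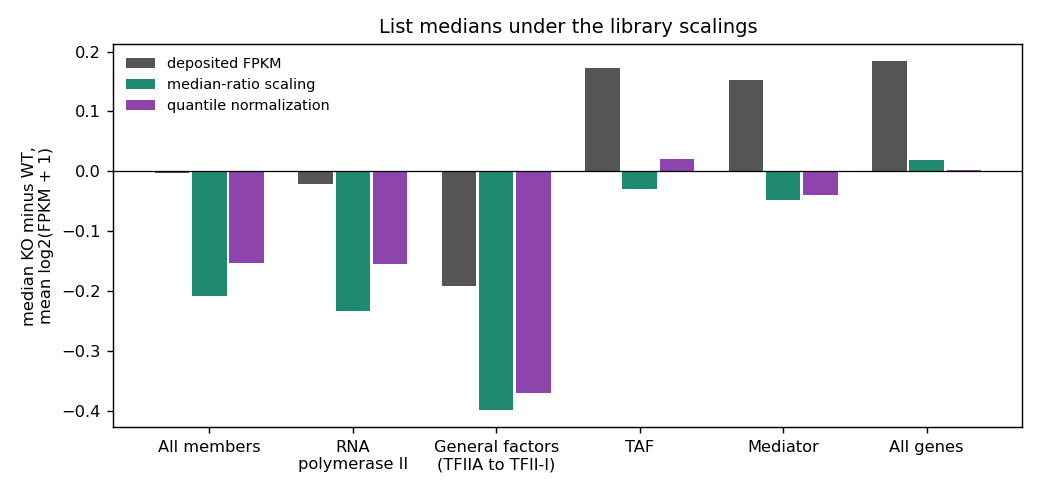
Median difference (KO minus WT, mean log2(FPKM + 1)) of each gene group and of all genes above the filter, as deposited and under both other library scalings. The general factors are lowest under each scaling (-0.19, -0.40 and -0.37), and the TAF and Mediator medians move to within 0.05 of 0 when the median of all genes does.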

How the data were processed

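The members and lists were chosen with earlier results of these data known. RNA of single oocytes was amplified as cDNA and sequenced, per the labels' protocols, and the authors deposited FPKM per Ensembl gene and oocyte. The submitters' processing notes list edgeR 3.1.10, HTSeq, Bowtie2, Bowtie 0.12.8, TopHat and TopHat2 2.0.2, and build mm9, with no role given. Symbols came from GENCODE M21, which named 87.4% of 37620 identifiers. Differences were taken on log2(FPKM + 1) with Python 3.11.15, numpy 2.4.6 and pandas 2.3.3. Read numbers were recovered from the steps in the deposited FPKM (tolerance 0.001), as the smallest that fit, which was tested on simulated data. Shared sequence is the percentage of a gene's 50-base words found in transcripts of other genes on either strand. Genes were named where past 1.5-fold, and per role by highest level and largest difference, with paralogs beside them. Other members within 1.5-fold (such as Med6, Med8, Med4, Taf7, Taf12, Gtf2h2 and Gtf2a2) and other pathway genes within it (Tbp, Tbpl2, Cdk7, Cdk8, Ercc3 and Mnat1) were chosen after their values were seen. The 14 alternatives changed the scaling, pseudocount, filter or oocytes used. They were not all independent. A change of filter leaves the difference of a gene that is still compared as it was. The replicate block (KO1, KO2 and KO4 less WT1, WT2 and WT4) is the same calculation as leaving out KO3.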

Additional observations from a re-analysis of the deposited data

Results flagged for a closer look

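A KO oocyte stood far from the other KO oocytes in 3 of the 64 genes examined, where chance alone gives a flag in about 1 of 20 groups. Polr2d was at 189 FPKM in KO4, against 373 to 391.8 FPKM in the other KO oocytes, and its difference of -0.62 was -0.36 without KO4. Taf9 was at 110.5 FPKM in KO4, against 139 to 144 FPKM in the others, and its difference of -0.56 was -0.47 without KO4. Taf15, an RNA-binding TAF, was at 2.79 FPKM in KO3, against 5.08 to 5.58 FPKM in the others, and its difference of 0.39 was 0.57 without KO3.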

How the results depend on the processing

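The 12 genes over 1.5-fold higher became 5 with median-ratio scaling, 6 with quantile normalization, 4 with a pseudocount of 5 and 7 with a filter at FPKM 10, which leaves 40 members, and 5 to 14 with an oocyte left out. The share of all genes was 15.6%, 14.4%, 7.86% and 18.1% under those 4 settings and 19.7% to 28.5% with an oocyte left out. The 7 lower genes became 12 with median-ratio scaling (13.0% of all genes) and 6 to 9 with an oocyte left out (7.52% to 9.15%). The median of all members was -0.0035, and it became -0.21 with median-ratio scaling, -0.15 with quantile normalization, -0.11 with a filter at FPKM 10, 0.0127 with no filter, and -0.0763 to 0.0628 with an oocyte left out. Median-ratio scaling gave -0.23 for polymerase genes, -0.40 for general factors, -0.0289 for TAF genes and -0.0483 for Mediator genes. Quantile normalization gave -0.37 for general factors and -0.0392 for Mediator genes, and the filter at FPKM 10 gave -0.16 for TAF genes. With an oocyte left out, the medians were -0.17 to 0.0026 for polymerase genes and -0.28 to -0.12 for general factors. The cause of these changes was not tested. Of the genes past 1.5-fold, 2 of the 12 higher (Med13 and Taf4) and 3 of the 7 lower (Gtf2a1, Gtf2h3 and Polr2g) stayed past it under all 14 alternatives. None changed sign. The changes of filter could not alter the difference of a single gene, so they are no check of these calls. No pairing by the shared replicate numbers was seen (deviations from the group means of same-numbered oocytes correlated at 0.11, -0.12 and -0.04). Oocytes with different numbers correlated at -0.11 to 0.10. With 4 KO and 3 WT oocytes these values cannot decide whether the numbers pair oocytes. As a value only, the replicate block (KO1, KO2 and KO4 less the same-numbered WT oocytes) gave a median of -0.04, with 11 higher and 9 lower. It repeats the run without KO3, with the same values, because a difference of means does not depend on pairing. For all genes in that setting the median was 0.20, with 24.2% higher and 8.2% lower. Members above the filter had 296 to 173439 reads in all, and depth limits mainly the 14 below it.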
